A study of Mus musculus with 4 samples.

Results

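The irradiation response of small intestine that lacks TLR3 was described from 114 of 1096 mouse miRNA probes, those with a bright signal on at least 1 of 2 arrays. TLR3 is an innate immune receptor for double-stranded RNA. The Tlr3-/- irradiated group was small intestine taken 6 hr after 10 Gy of total body gamma-irradiation, and the Tlr3-/- non-treated group was small intestine at 0 hr. Each group was 1 array that held RNA pooled from 3 mice. The series also holds Tlr3+/+ irradiated intestine at 6 hr and Tlr3+/+ non-treated intestine at 0 hr, again with 1 array of 3 pooled mice each, and these serve here only for values set beside those of Tlr3-/-. With 1 array a group no test was possible and no value has an error between mice or pools, so precision is limited by the array number. Irradiation, the 6 hr that passed, the pool and the array cannot be told apart, and neither can a change of RNA per cell and a change of cell numbers. The array holds no probe for Tlr3 mRNA among the values used here, so the genotype was not checked.

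A bright probe was one whose raw intensity was above 3 times the detection threshold, set per array at the blank mean plus 2 SD. The blank spots averaged 27.3 on the irradiated array and 24.9 on the non-treated array, with SDs of 0.928 and 0.804. The threshold was therefore 29.2 on the irradiated and 26.5 on the non-treated array, and the limit for a bright probe 87.6 and 79.4. The 3 negative controls averaged 28.0 to 29.7 on the irradiated array and 25.5 to 26.7 on the non-treated array, so their highest mean lay above the threshold on each. The limit was passed by 105 probes on the irradiated array and by 111 on the non-treated array. All 114 bright miRNAs were above the threshold on both arrays, and 625 mouse probes in all were. The probes just inside the limit were miR-680, miR-1894-3p and miR-425, at 1.00, 1.02 and 1.02 times it on their brighter array, and the nearest outside were miR-375, miR-671-5p and miR-125a-5p at 0.990, 0.979 and 0.978 times. Log2 ratios of these 6 lay between -0.36 and 0.02.

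MicroRNAs are short RNAs cut from a hairpin precursor. Loaded into Argonaute proteins, they repress mRNAs that pair with their seed, bases 2 to 8 from the 5′ end. Each hairpin yields 2 strands, and the array marks with an asterisk the strand then held to be the minor one, called the star strand here. In the gut, miR-192, miR-194, miR-215 and the miR-200 family belong to the epithelium, miR-143 and miR-145 to smooth muscle and other mesenchyme, miR-142, miR-150 and miR-223 to blood-derived cells and miR-451 to red cells. Ionizing radiation activates p53 in intestinal crypts, and the miR-34 family is its best known miRNA target.

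The bright miRNAs that were at least 1.5-fold higher on the irradiated array had GC-rich, G-rich sequences, and their letters are shown first because that shared feature was not used to choose them. All sequences are from RefSeq (GRCm38.p6), 5′ to 3′, with the seed in capitals, and the array's older names were matched to current arm names. Of the 13 such miRNAs, 12 matched, here in order of their ratio.
miR-3473 (miR-3473a): uGGAGAGAuggcucagca
miR-3473b: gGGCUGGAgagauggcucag
miR-92b* (miR-92b-5p): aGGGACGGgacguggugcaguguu
miR-5128: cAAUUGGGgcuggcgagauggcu
miR-2861: gGGGCCUGgcggcgggcgg
miR-5122: cCGCGGGAcccggggcugug
miR-2137: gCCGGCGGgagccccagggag
miR-3102* (miR-3102-5p): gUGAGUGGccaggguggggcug
miR-5126: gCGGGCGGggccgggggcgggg
miR-3090* (miR-3090-5p): gUCUGGGUggggccugagauc
miR-326* (miR-326-5p): gGGGGCAGggccuuugugaaggcg
miR-711: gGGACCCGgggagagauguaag

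These 12 had a median of 68.8% G and C bases, with a range of 55.6% to 100%. The 77 matched miRNAs within 1.5-fold had a median of 45.5%. Bright miRNAs without a matched sequence were left out of this and the next counts, among them miR-328*, miR-3960 and miR-5109, all within 1.5-fold. Of the 12 sequences, 8 hold the run GGGG, against 1 of 4 that were lower and 5 of 77 within 1.5-fold (6.49%), while 11.2% of all 1679 mature mouse miRNAs of the table hold it. Only this strand was searched, and a match is a description of the letters. No pair of the 12 shares a seed. miR-3473, miR-3473b and miR-5128 nevertheless share the 9-base run GAGAUGGCU, which 4 of the 1679 mature miRNAs (0.238%) hold, and miR-3473 and miR-3473b share 16 bases in a row. As background, the common letters are those of the start of the mouse B2 repeat, a short interspersed element transcribed by RNA polymerase III. RNA of that repeat was not measured here.

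The sequences below are those of 4 matched miRNAs at least 1.5-fold lower on the irradiated array and of 3 epithelial miRNAs that differed by less than 1.5-fold, shown for contrast in composition.
miR-135a-2* (miR-135a-2-3p): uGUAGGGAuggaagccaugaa
miR-451 (miR-451a): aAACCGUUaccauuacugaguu
miR-128-2* (miR-128-2-5p): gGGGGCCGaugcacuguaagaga
miR-10a (miR-10a-5p): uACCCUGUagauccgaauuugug
miR-194 (miR-194-5p): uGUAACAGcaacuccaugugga
miR-192 (miR-192-5p): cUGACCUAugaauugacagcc
miR-215 (miR-215-5p): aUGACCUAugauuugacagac

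After irradiation, 13 of the 114 bright miRNAs (11.4%) exceeded the non-treated level by 1.5-fold or more, as did 13.1% of all 625 compared probes. At least 1.5-fold lower were 6 (5.26%), where 8.48% of all compared probes were. Among the higher, miR-3473, miR-5115 and miR-5122 were bright only on the irradiated array. Among the lower, miR-128-2*, miR-135a-2*, miR-142-5p and miR-451 were bright only on the non-treated array. Each of these therefore entered through the array where it was higher. At 2-fold, 6 of the 114 bright miRNAs (5.26%) were higher, against 18 of the 625 compared probes (2.88%). Lower by 2-fold were 4 of the 114, all bright only on the non-treated array, against 20 of the 625 (3.2%). The bright miRNAs were thus not past the 1.5-fold limit more often than probes in general. Their share at least 2-fold higher was the larger one, but miR-3473 and miR-5122 among those 6 were bright only on the irradiated array. Values are raw intensities minus the blank mean, times the authors' factor for each array, and ratios are irradiated over non-treated on the log2 scale. The technical SD beside a ratio joins the spread of spike control spots within an array with that of blank spots. It holds no spread between mice, pools or arrays. This SD was 0.112 at most for 113 of the 114. The median ratio of the bright miRNAs was -0.13, with quartiles of -0.27 and 0.13, so 73 lay below 0 and 41 above, while the median of all compared probes was -0.03. Scaled to the spike controls the bright median was 0.17, so that the place of 0 depends on the scaling by more than most of these ratios. Of the 114, 74 lay within 0.25 of the bright median.

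The kinds of miRNA that were higher can be read from their names. Of the bright probes, 14 were star strands, 28 were later-numbered miRNAs (number 600 or above, no asterisk) and 72 were all others. The 13 higher miRNAs were 9 later-numbered and 4 star strands. None of the other 72 was at least 1.5-fold higher, and the highest of them stood at 0.36. The median ratio was 0.07 for later-numbered miRNAs, 0.15 for star strands and -0.16 for the others. Many later-numbered names come from deep sequencing surveys, and several of them have since been questioned as miRNAs.

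**Figure D1:**
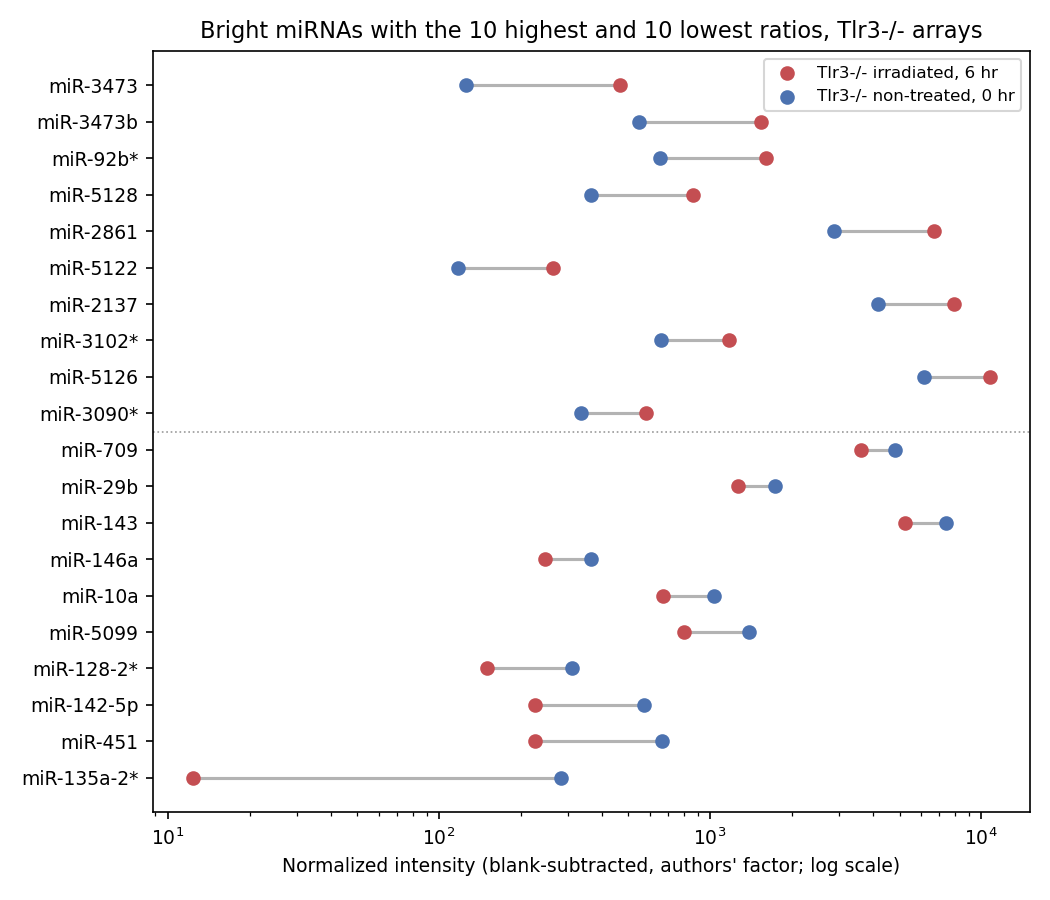
Normalized intensity (log scale) of the bright miRNAs with the 10 highest and 10 lowest ratios, on the Tlr3-/- irradiated (red) and Tlr3-/- non-treated (blue) arrays, 1 point an array. Each pair lies apart by less than 4-fold except miR-135a-2*, whose irradiated signal was 3.02 above the blank mean.

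The 3 miRNAs with the shared run were among the 4 highest ratios, with miR-92b* the third. Of the 3, miR-3473 was bright only on the irradiated array. miR-3473 read 141 on the irradiated array, against 52.4 on the non-treated array, a log2 ratio of 1.89 ± 0.11 (technical SD) or 3.70-fold. miR-3473b read 404 irradiated and 145 non-treated (1.49 ± 0.10, 2.81-fold). miR-5128 read 238 irradiated and 105 non-treated (1.25 ± 0.10, 2.38-fold). All 3 exceeded 1.5-fold in each of 9 other scalings or background corrections, with lowest values of 0.95 for miR-3473 and 0.91 for miR-5128. Since their sequences overlap, by 16 bases for miR-3473 and miR-3473b, these probes may read each other's RNA. Whether the 3 are separate readings was not tested. Their loci lie apart: miR-3473a at chrX:162874920-162874937 on the minus strand within the span of the gene Syap1, miR-3473b at chr10:41670774-41670793 on the plus strand within Ccdc162, and miR-5128 at chr2:37688212-37688234 on the minus strand within Strbp. Exon and intron bounds were not used here.

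Among the other later-numbered miRNAs that were higher, miR-2861 and miR-5126 were almost entirely G and C. miR-2861, which was first described in osteoblasts and lies in a cluster with miR-3960, read 1663 on the irradiated array and 653 on the non-treated array (log2 1.22 ± 0.10, 2.34-fold). Its sequence is 94.7% G and C, at chr2:32712819-32712837 on the minus strand. miR-5126 is 100% G and C, lies at chr1:84695890-84695911 on the plus strand within Dner, and read 2660.3 irradiated against 1377 non-treated (0.81 ± 0.10). miR-2137, on the plus strand at chrX:72992113-72992133 within Zfp185, read 1972 irradiated against 939.9 non-treated (0.93 ± 0.10). These 3 signals are bright on both arrays. With no background correction, miR-2861, miR-5126 and miR-2137 stood at 1.21, 0.81 and 0.93. Their lowest values in other settings were 1.21, 0.75 and 0.66 in the same order. Those of miR-5126 and miR-2137 came with an offset of 50 and quantile normalization, changed together. miR-5122 read 91.5 irradiated against 50.7 non-treated (1.16 ± 0.11), and 0.62 with an offset of 50 and quantile normalization. miR-711 and miR-5115 stood at the limit with ratios of 0.59 each, and passed it in 7 and 6 of 9 other settings.

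Other later-numbered miRNAs stood under the 1.5-fold limit, or below 0. miR-3960 read 1330.4 irradiated and 918 non-treated (0.39), although its hairpin neighbours that of miR-2861. miR-762, with 81.8% G and C bases, read 308 irradiated and 236 non-treated (0.25). miR-5109 stood at 0.43. miR-720, since dropped from the miRNA registry as a fragment of a tRNA, read 2521 irradiated and 2131 non-treated (0.09), and miR-690 read 3857 and 3521 in the same order (-0.02). The lowest later-numbered miRNA was miR-5099, at 223 irradiated against 331 non-treated (-0.80 ± 0.10, and -0.51 when scaled to the spike controls).

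**Figure D2:**
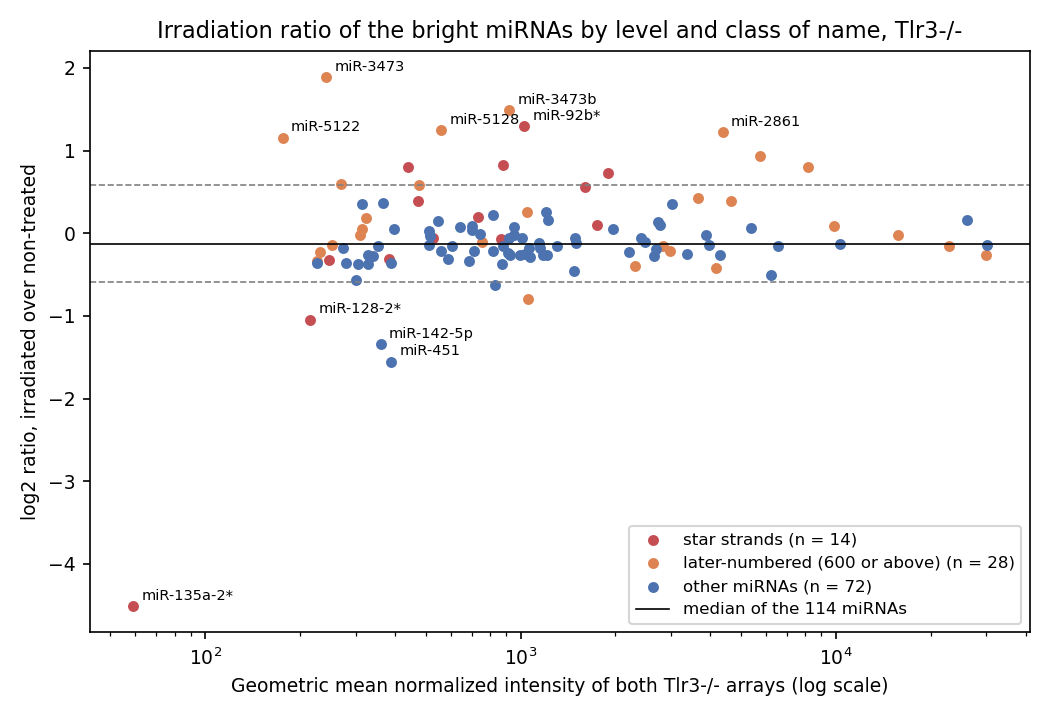
Log2 ratio of the irradiated over the non-treated Tlr3-/- array (y) against the geometric mean normalized intensity of both (x, log scale) for 114 bright miRNAs, coloured by class of name, with dashed lines at 1.5-fold. Points above the upper line are star strands and later-numbered miRNAs at low and high levels alike, and the solid line marks the median of -0.13.

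Star strands were the other source of high ratios, and for those that were higher the partner strands, cut from the same hairpin, gave a comparison within the precursor. miR-92b* read 421 on the irradiated array, against 168 on the non-treated array (log2 1.30 ± 0.10, 2.46-fold, and 1.10 to 1.59 in other settings). Its partner miR-92b, a member of the miR-25 and miR-92 seed family, read 45.1 irradiated and 44.8 non-treated, a ratio of -0.32 ± 0.14. The 2 strands of this hairpin on chromosome 3 thus differed in ratio by more than the technical SD of either. That SD holds no spread between arrays or pools.

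miR-326* read 622 irradiated and 347 non-treated (0.73 ± 0.10), and its partner miR-326 read 33.3 irradiated and 31.1 non-treated (-0.23 ± 0.31). miR-3102* read 314 irradiated and 169.9 non-treated (0.83 ± 0.10), with miR-3102 at 32.9 and 28.1 in the same order (0.65 ± 0.45). miR-3090* read 169 irradiated and 97.9 non-treated (0.80 ± 0.10), with miR-3090 at 33.5 and 29.4 (0.28 ± 0.35). The partners of these 3 lay near the thresholds and near the negative controls, and their technical SDs are wide, so unequal change within a hairpin was not shown for miR-3102 and miR-3090. miR-328* stood at 0.56, just under the limit, with 503 irradiated against 314 non-treated. miR-149* (0.10) and miR-211* (0.20) stood near 0.

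The 2 star strands that were lower included the lowest ratio of all. miR-135a-2* read 30.4 on the irradiated array, 1.17 above its threshold, against 86.6 on the non-treated array. Its ratio of -4.51 ± 0.45 therefore rests on a signal of 3.02 above the blank mean, and it was -1.07 with an offset of 50 and quantile normalization, so its size is not settled. The probe for miR-135a was not above the threshold on either array, at 25.8 irradiated and 23.2 non-treated. miR-128-2* read 64.0 irradiated against 92.6 non-treated (-1.04 ± 0.11), where the probe for miR-128 had a ratio of -0.28 ± 0.24. The names miR-135a and miR-128 give no hairpin number, so these 2 pairs need not compare strands of 1 hairpin. miR-128-2* was -0.47 with the offset and quantile setting. Both strands of miR-215 were bright, and stood at 0.16 for miR-215 and -0.07 for miR-215*.

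Base composition was then set against the ratio over the 93 bright miRNAs with a matched sequence. Of the 10 with at least 70% G and C bases, 6 were at least 1.5-fold higher and 0 lower, with a median of 0.77. Of the 27 with 50% to 70%, 6 were higher and 1 lower (median -0.16), and of the 56 under 50%, 0 were higher and 3 lower (median -0.14). Spearman's rho between GC content and ratio across these miRNAs was 0.35 in Tlr3-/- and 0.46 in Tlr3+/+, given as a description, since the probes of an array share its hybridization and depth of signal. Among the 63 matched miRNAs that were neither star strands nor later-numbered, rho was 0.05 in Tlr3-/-, but they span only 31.8% to 59.1%. It was 0.49 in Tlr3-/- for the 12 matched star strands and 0.33 for the 18 matched later-numbered miRNAs. In Tlr3+/+ the rho of these 3 classes was 0.04, 0.49 and 0.66 in the same order. Among 136 dimmer probes above the threshold on all 4 arrays rho was 0.09 in Tlr3-/- and 0.31 in Tlr3+/+. The ratio had a rho of 0.05 with raw intensity on the non-treated array over the same 93, and -0.28 with length. Base composition and class of name go together here, and their parts in the ratios were not tested.

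**Figure D3:**
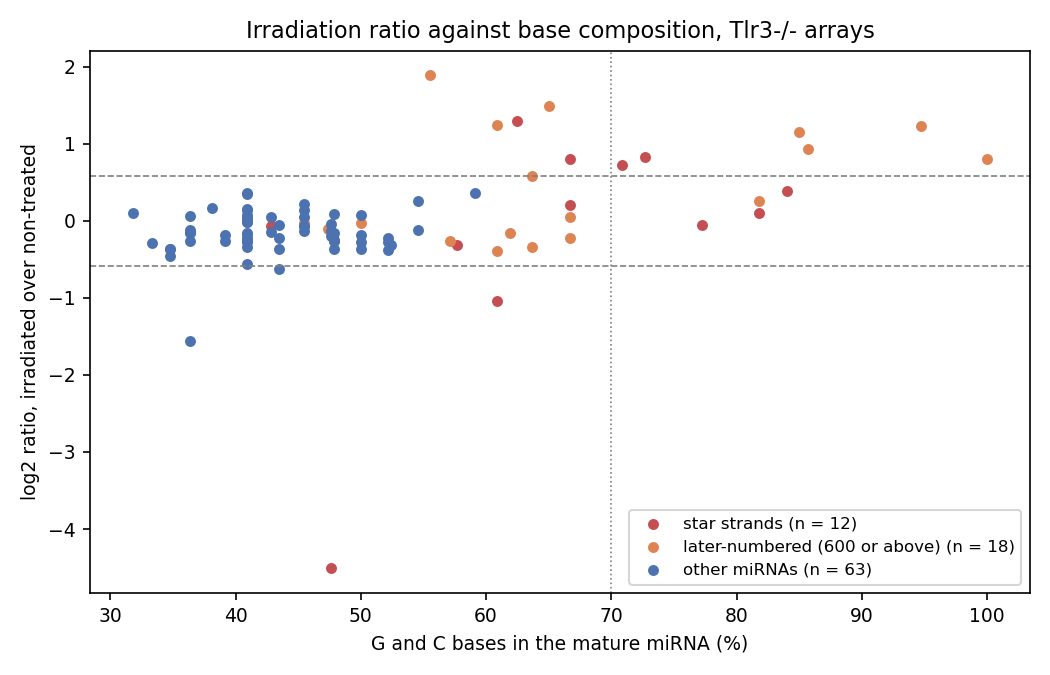
Log2 ratio of the irradiated over the non-treated Tlr3-/- array (y) against the percentage of G and C bases in the mature sequence (x) for the 93 bright miRNAs with a sequence, coloured by class of name, with dashed lines at 1.5-fold and a dotted line at 70%. All higher miRNAs with a sequence lie at 55.6% or above, and the miRNAs outside both name classes end at 59.1%.

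Epithelial miRNAs were bright and near the median of the bright miRNAs. Of 11 listed, 10 were bright, with a median of -0.12 (-0.22 to 0.16), 0 past 1.5-fold in either direction and 7 below 0. miR-194 read 7057 on the irradiated array and 6969 on the non-treated array (-0.14). miR-192, which p53 can induce and which shares its seed with miR-215, read 2429.9 irradiated and 2385 non-treated (-0.13). miR-215 read 6788 irradiated and 5443 non-treated (0.16). miR-141 stood at 0.15, miR-200a at -0.02, miR-200b at -0.14, miR-429 at -0.18 and miR-200c at -0.22. These 5 are the miR-200 family, which keeps epithelial identity by repressing Zeb factors. miR-203, an epithelial miRNA of differentiation, read 201 irradiated and 177 non-treated (0.04). miR-31 stood at -0.12, and miR-375, just under the bright limit, at 0.02. In 2 of 9 other settings the epithelial median turned above 0, to 0.17 when scaled to the spike controls.

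Smooth muscle and stromal miRNAs lay a little lower. Of 7 listed, 5 were bright, all below 0, with a median of -0.22 and 0 past 1.5-fold. miR-143 read 1303 on the irradiated array, against 1652 on the non-treated array (-0.51 ± 0.10), and it stood at -0.80 with normexp, the offset of 50 and quantile normalization and -0.21 with spike scaling. miR-145, from the same cluster, read 1552 irradiated and 1542 non-treated (-0.15). The 2 probes of this cluster thus differed in ratio by more than their technical SD, which holds no spread between arrays or pools. The endothelial miR-126-3p read 331 irradiated and 327 non-treated (-0.15), and the fibroblast miRNAs miR-199a-5p and miR-199a-3p stood at -0.27 and -0.22. Of the 2 dimmer ones, miR-126-5p, the other strand of the endothelial hairpin, stood at 0.13 and miR-214 at -0.23. The median of the list turned to 0.08 under spike scaling.

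Outside the star strands, the lowest ratios were those of miR-451 and miR-142-5p, both from blood cells and both bright only on the non-treated array. Other miRNAs of the same lists stood nearer to 0 or above it. miR-142-5p, made in all blood lineages, read 82.6 on the irradiated array, against 150.5 on the non-treated array (log2 -1.34 ± 0.10), and stayed past 1.5-fold in each of 9 other settings (-1.37 to -0.78). miR-223, of neutrophils and macrophages, read 100.4 irradiated and 104 non-treated (-0.27). The remaining 4 leukocyte miRNAs were under the bright limit. miR-142-3p stood at -0.48, miR-150 of lymphocytes at -0.49, miR-155 at -0.79 and miR-342-3p at -0.28. Of these, miR-155 was close to the thresholds, at 32.4 irradiated and 32.7 non-treated. All 6 were thus below 0, as were 332 of the 625 compared probes, but scaling to the spike controls, which shifts every ratio by 0.29, puts miR-223 and miR-342-3p above 0. The summed normalized intensity of all 6 was 918 on the irradiated array and 1471 on the non-treated array. Of these sums, miR-142-5p alone gave 226 and 573 in the same order. miR-451 was the only bright miRNA of the 3 red cell miRNAs. It read 82.7 irradiated against 171 non-treated (-1.55 ± 0.10, 2.94-fold lower, with -1.58 to -0.94 in other settings). miR-144, from the same cluster as miR-451, read 29.5 irradiated and 26.7 non-treated, close to the thresholds (0.10). The probe for miR-486 and miR-3107 read 38.5 irradiated and 33.4 non-treated (0.23), so 2 of the 3 red cell probes were above 0. How much blood each piece of intestine held was not tested.

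Markers of other tissues were dim or not above the threshold. miR-122 of liver read 29.2 irradiated and 25.8 non-treated. All 3 pancreatic miRNAs (miR-216a, miR-216b and miR-217) were not above the threshold on the irradiated array, and 2 of the 3 were not on the non-treated array. The neuronal miR-124 read 27.8 irradiated and 26.6 non-treated. The other neuronal miRNAs listed, miR-9 and miR-128, were above the threshold on both arrays, with ratios of -0.39 and -0.28. Of 4 probed striated muscle miRNAs 2 were above the threshold on both arrays, with a summed normalized intensity of 139 irradiated and 116 non-treated. Of these 2, miR-133a had 41.9 irradiated against 31.2 non-treated (1.04), and the brighter miR-133b stood at -0.13. None of these lists held a bright miRNA.

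**Figure D4:**
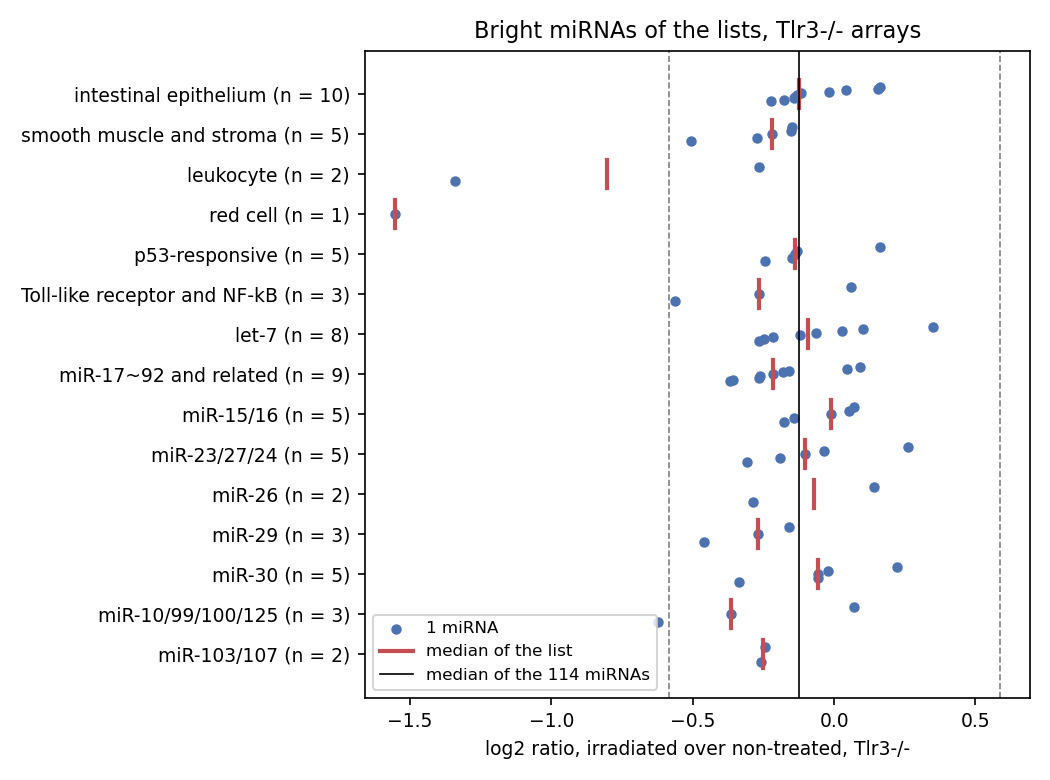
Log2 ratio of the irradiated over the non-treated Tlr3-/- array (x) for the bright miRNAs of 15 lists (rows), 1 point a miRNA, with a red bar at the median of the list, a black line at the median of all 114 and dashed lines at 1.5-fold. Points past the lower line are miR-451, miR-142-5p and miR-10a, and no listed miRNA passes the upper line.

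miRNAs tied to p53 and to innate immune signalling were measured next, since total body irradiation activates the first and TLR3 feeds the second. Of the p53-responsive list, 5 of 9 probed miRNAs were bright, with a median of -0.14 (-0.25 to 0.16) and 0 past 1.5-fold. The direct p53 target miR-34a was under the bright limit, at 45.2 irradiated and 35.1 non-treated, and its ratio was 0.65, against -0.18 in Tlr3+/+. miR-34b-3p read 30.4 irradiated and 27.7 non-treated, close to the thresholds (-0.03). miR-34c read 32.3 on the irradiated array and 25.9 on the non-treated array, where it was not above the threshold. Of the Toll-like receptor and NF-kB list, 3 of 7 were bright (median -0.27, and -0.58 in Tlr3+/+). miR-146a, an NF-kB target that dampens IRAK1 and TRAF6, read 87.6 irradiated and 105 non-treated (-0.56 ± 0.10, and -0.58 in Tlr3+/+). miR-21, linked to growth and inflammation, read 1371 irradiated and 1183 non-treated (0.06, and -0.80 in Tlr3+/+). The dim miR-155 read 32.4 irradiated and 32.7 non-treated (-0.79), and miR-132 read 31.3 and 30.7 in the same order (-0.70). Both were close to the thresholds, so their ratios rest on little signal above the blank mean. In Tlr3+/+ they stood at -0.86 and -1.19.

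Ratios were then grouped by seed. Among matched bright miRNAs, 13 seeds were held by at least 2, and their ranges of log2 ratio ran between 0.01 for miR-103 with miR-107 and 0.61 for let-7. No comparison with miRNAs of unlike seed was made. The 8 bright let-7 miRNAs, which repress growth genes such as Lin28 and Hmga2, had a median of -0.09, between -0.26 for let-7a and 0.35 for let-7c. let-7 probes differ by few bases and may read each other's RNA. The seed AAAGUGC of miR-17, miR-20a, miR-20b, miR-93, miR-106a and miR-106b had a median of -0.19. The wider list of miR-17-92 and related proliferation clusters had 9 bright of 12, 0 past 1.5-fold and a median of -0.22 (-0.37 to 0.09). The seed AGCAGCA of miR-15a, miR-15b, miR-16, miR-195 and miR-497 had a median of -0.01 and a range of 0.25. The miR-29 family, which represses collagens, had all 3 below 0 (median -0.27, with miR-29b at -0.46). The miR-30 family had 4 of 5 below 0 (median -0.06), miR-23, miR-27 and miR-24 a median of -0.10, and miR-26 -0.07. The miR-10, miR-99, miR-100 and miR-125 list had 3 bright of 7 (median -0.37). Its miR-10a, encoded between Hox genes, read 191 irradiated against 251 non-treated (-0.62 ± 0.10), past 1.5-fold in 2 of 9 other settings. Every list median named in this paragraph turned above 0 under spike scaling except the last, which was -0.07.

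The same bright miRNAs were read in Tlr3+/+ intestine, from 2 other arrays. Their median ratio there was -0.33, against -0.13 in Tlr3-/-. Of the 13 miRNAs at least 1.5-fold higher in Tlr3-/-, 12 (92.3%) were so in Tlr3+/+, where 22 of the 114 were (54.5% of those 22 shared) and 15.9% of 680 compared probes. The exception was miR-5115, at 0.59 in Tlr3-/- and 0.58 in Tlr3+/+. Of the 13, 10 had the larger ratio in Tlr3+/+. miR-92b* stood at 1.30 in Tlr3-/- and 2.48 in Tlr3+/+, miR-326* at 0.73 and 1.80, miR-2861 at 1.22 and 2.02, and miR-5122 at 1.16 and 2.13 in the same order. The 3 miRNAs with the shared run were nearer to each other, with miR-3473 at 1.89 in Tlr3-/- and 2.09 in Tlr3+/+, miR-3473b at 1.49 and 1.25, and miR-5128 at 1.25 and 1.21. None of these differences between genotypes could be tested with 1 pair of arrays each.

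Of the 6 lower in Tlr3-/-, 4 were also at least 1.5-fold lower in Tlr3+/+, where 8 of the 114 and 15.3% of compared probes were. These 4 were miR-135a-2* (-4.51 in Tlr3-/- and -1.18 in Tlr3+/+), miR-142-5p (-1.34 and -0.67), miR-128-2* (-1.04 and -0.79) and miR-5099 (-0.80 and -0.65). miR-10a was -0.62 in Tlr3-/- and -0.25 in Tlr3+/+. miR-451 took opposite signs, at -1.55 in Tlr3-/- and 2.32 in Tlr3+/+. Its raw intensity was 82.7 irradiated and 171 non-treated in Tlr3-/-, and 129 irradiated and 42.3 non-treated in Tlr3+/+, so the irradiated arrays differed less than the non-treated arrays did. miR-21 and miR-203, at 0.06 and 0.04 in Tlr3-/-, stood at -0.80 and -0.77 in Tlr3+/+. miR-195 read 146 irradiated and 143 non-treated in Tlr3-/- (-0.14), against 111 irradiated and 39.6 non-treated in Tlr3+/+ (2.28). Over the 114, Pearson's r between the genotypes' ratios was 0.57 and Spearman's rho 0.50, a description over probes that share array design and scaling.

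**Figure D5:**
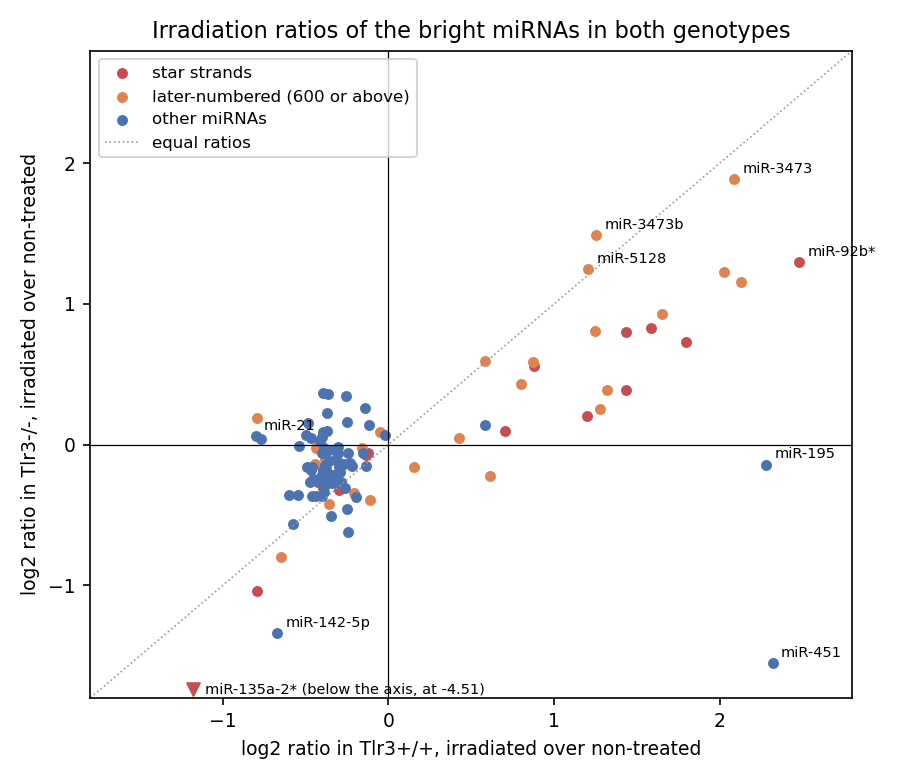
Log2 irradiation ratio in Tlr3-/- (y) against that in Tlr3+/+ (x) for 114 bright miRNAs, coloured by class of name, with a dotted line of equal ratios. Most of the higher star strands and later-numbered miRNAs lie below the dotted line, miR-3473b, miR-5128 and miR-5115 lie on or above it, and miR-451 lies at 2.32 and -1.55, in the lower right.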

How the data were processed

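Total RNA of small intestine was labelled with Hy5 for 1-colour miRNA arrays, per the labels' protocols, with 1 array of 3 pooled mice a group. The deposited files hold, per their headers, 3 columns by the authors: raw intensity, intensity less background, and global normalization. No scanner or software is named in those sources. Starting from raw intensity, the mean of the blank spots (5% trimmed at each end) was subtracted and each array scaled so that the median of miRNA probes above the threshold (blank mean plus 2 SD) was 25. This gave the authors' normalized column within rounding. It was preferred to normexp with an offset of 50 and quantile normalization (limma 3.58.1, R 4.3.3), which shrinks ratios at these low intensities and sets the brightest probes by rank. That setting was an alternative, as were other scalings, backgrounds and filters (13 alternatives in all). Each array held 3136 spots, 1135 of them miRNA probes with 1 spot each, and 1818 blanks.

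No test was made. The technical SD joins the pooled log2 SD of 2 spike controls with 8 spots each per array (0.0707) and the blank SD. Counting was checked on simulated data in which both arrays had the blank level of the non-treated array. The higher blank level of the irradiated array was not covered by that check. miRNA lists (19) came from general knowledge, and named miRNAs are the 10 highest, 10 lowest and 10 brightest, list members, and those that complete a count or show a strand or genotype contrast, the last chosen after their values were seen. The members and lists were chosen with earlier results of these data known. The arm of older names without one was assigned by hand from miRNA nomenclature. Sequences were used for 93 of 114, called matched here. The others had no match, or a locus on a chromosome that was left out.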

Additional observations from a re-analysis of the deposited data

Results flagged for a closer look

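miR-451 was flagged because its irradiation ratio had opposite signs in the genotypes, at -1.55 (log2) in Tlr3-/- and 2.32 in Tlr3+/+. The difference was not tested, since each ratio rests on 1 pair of arrays.

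Probes for viral miRNAs were outside the comparison. The brightest, a mouse cytomegalovirus miRNA, read 250.4 on the Tlr3-/- irradiated array and 207 on the Tlr3-/- non-treated array, against 225 on the Tlr3+/+ irradiated and 241 on the Tlr3+/+ non-treated array. On the Tlr3-/- irradiated array 25 of 39 viral probes were above the threshold and 1 was above 3 times it, against 21 and 2 on the non-treated array.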

How the results depend on the processing

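The 13 higher and 6 lower miRNAs were recounted under 13 alternatives. Scaled to the spike controls, 20 were higher and the bright median was 0.17. With a 2-fold limit 6 were higher. With the 3-fold filter required on both arrays 10 were higher and 2 lower, without the miRNAs that were bright only on the array where they were higher. The median was 0 by construction when scaled to it, and -0.0084 with normexp and an offset of 16. Other counts stayed within 1.5 times. Normexp, an offset of 50 and quantile normalization, changed together, kept 9 of the 13 and 4 of the 6, without miR-3090*, miR-326*, miR-711, miR-5115, miR-10a and miR-128-2*, and which of these steps did so was not tested. With no background correction, miR-5115, miR-711 and miR-10a were lost too. Of 270 values of the 30 single miRNAs, 117 moved by more than 0.100, the technical SD of a bright ratio, and 153 did not. None of the 19 past 1.5-fold changed sign in the 9 scalings and backgrounds. Dim signal limits miR-135a-2* and the partner strands. No paired analysis was possible because each group had 1 array.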
